A study of Macaca fascicularis with 22 samples.

Results

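RNA of skeletal muscle was set against RNA labelled liver in neonatal female cynomolgus macaques (Macaca fascicularis), on 14 of the 22 single-colour arrays of the study. The comparison takes all 8 skeletal muscle arrays and all 6 arrays labelled liver, by their titles, and holds birth weight group as a covariate. There were 4 skeletal muscle arrays of average birth weight (ABW, the 50th to 75th centile) and 4 of lower birth weight (LBW, the 5th to 25th centile), with 3 arrays labelled liver in each group. The titles call ABW control and LBW treated, but the labels name no agent, only the birth weights, and the study's methods name the biceps femoris as the muscle. The labels place the sampling at birth and the methods some days later. The methods take liver and muscle from the same neonates, but no source used here ties arrays to animals, so the 14 arrays entered the test as separate samples. The 8 arrays labelled umbilical cord served to check the labels. They also entered the filter that chose the probes tested and an alternative fit.

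Skeletal muscle is built of long fibres packed with sarcomeres, in which thick myosin filaments pull on thin actin filaments once calcium binds troponin. The fibres take up glucose and fatty acids and oxidise them in mitochondria. Liver parenchyma consists mostly of hepatocytes, which make plasma proteins, bile acids and urea. Connective tissue, by contrast, is laid down by fibroblasts that secrete collagens, proteoglycans and fibronectin. The comparison shows which transcripts separate neonatal muscle from the tissue on the arrays labelled liver.

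Values are log2 signals, averaged over a probe's 2 spots, minus the 75th percentile of that array. A level of 0 is that percentile and a difference of 1 is a 2-fold change. Levels of different probes cannot be compared, and fold changes are those of the fitted difference. The unscaled 75th percentile was 359.2 to 802.8 in skeletal muscle and 778.2 to 1042.4 in labelled liver. Between 14991 and 15978 of the 20217 probes were flagged well above background on the muscle arrays and between 15352 and 16156 on the others. Arrays of the same label correlated at 0.953 to 0.983 for skeletal muscle and 0.968 to 0.982 for labelled liver over the tested probes, against 0.753 to 0.824 between the labels. Skeletal muscle occupied slides of its own (slide 1 for ABW and slide 2 for LBW), and the arrays labelled liver were on slide 3, or for LBW replicates 2 and 3 on slide 4. Tissue and slide therefore cannot be told apart.

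The label liver went against the data. HNF4A, a transcription factor of hepatocytes, was not well above background on any of the 6 arrays labelled liver, nor on any muscle array, and the same was true of CP (ceruloplasmin), F13B (a coagulation factor subunit) and GC (vitamin D binding protein). On the arrays labelled umbilical cord HNF4A was well above background on all 8. Of 33 genes with known functions in hepatocytes, 32 were lower on every array labelled liver than on every array labelled umbilical cord. Of the 33, 10 passed the filter on dim probes only through the umbilical cord arrays, HNF4A, CP, F13B and GC among them, so that filter favoured this outcome for them. Of the 23 that passed on the muscle and labelled liver arrays alone, 22 were lower on every array labelled liver than on every umbilical cord array. These 23 are also a selection, since a gene could get its symbol through a birth weight difference in umbilical cord alone. How far this favoured the outcome was not tested. No share over all probes is given here for this separation, so its background rate is not shown. The median level over the 33 genes ran from -6.40 to -5.95 on the arrays labelled liver, from -6.10 to -4.27 on the muscle arrays and from 0.44 to 1.31 on the umbilical cord arrays. Between 17 and 21 of the 33 were flagged above background on an array labelled liver, against 31 to 33 on an array labelled umbilical cord. The 6 arrays are therefore called labelled liver throughout, and no other tissue name is given to them. The skeletal muscle label met no such conflict, since the median of 9 sarcomere genes ran from 6.39 to 7.25 on the muscle arrays and from -2.54 to -0.93 on those labelled liver.

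**Figure D1:**
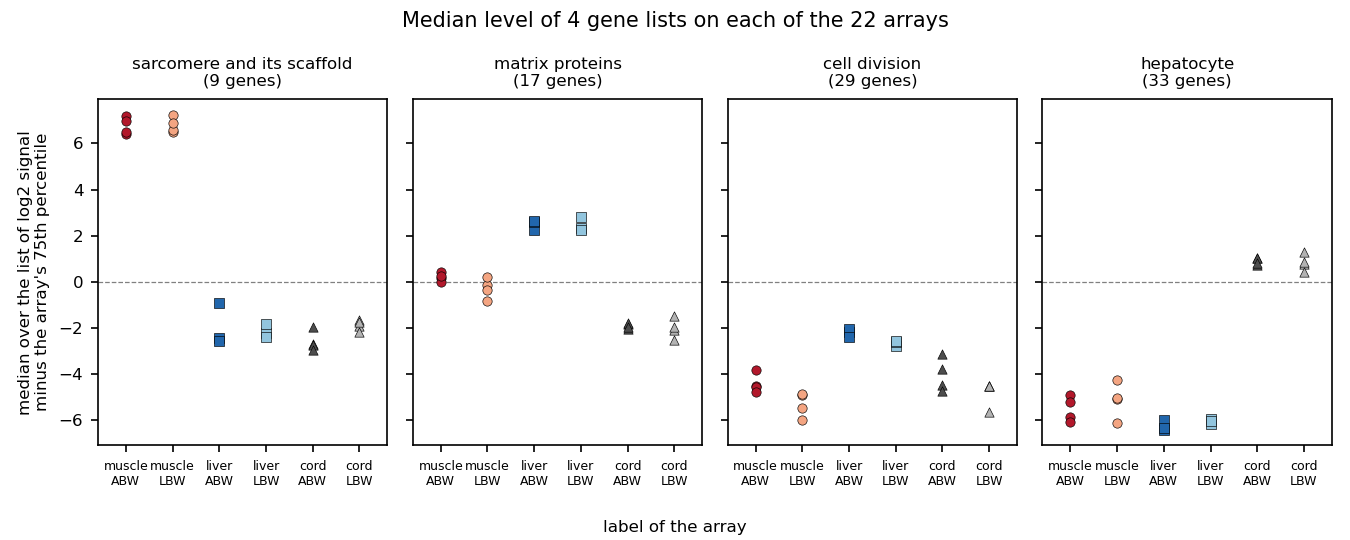
Median log2 level, relative to the array's 75th percentile, of 4 gene lists on each of the 22 arrays, where each point is an array and the groups are its tissue label and birth weight. The hepatocyte genes lay between -6.40 and -5.95 on the arrays labelled liver and 0.44 to 1.31 on the umbilical cord arrays, while the sarcomere genes were above 6 on all 8 muscle arrays. Of the 33 hepatocyte genes, 10 passed the filter on dim probes only through the umbilical cord arrays.

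Most transcripts differed between the labels. Of 17117 probes tested, 12141 (70.9%) had a Benjamini-Hochberg adjusted p under 0.05 in limma, with 6949 (40.6%) higher in skeletal muscle and 5192 (30.3%) higher in labelled liver. A difference of at least 2-fold was also met by 4250 probes (24.8%) higher in skeletal muscle and 3539 (20.7%) higher in labelled liver. These counts were 2484 and 2174 after normexp background correction and 2082 and 6082 with spike-in scaling. At 4002 probes (23.4%) every muscle array lay above every array labelled liver, and at 3267 (19.1%) every muscle array lay below. Differences of at least 16-fold were found at 476 probes higher in skeletal muscle and 432 higher in labelled liver. The median difference over all tested probes was 0.21. The split by direction depended on the scaling: with each array reduced by its spike-in controls the median difference moved by -0.75, and 2523 probes were higher in skeletal muscle and 7232 in labelled liver. Changes are thus best read relative to the other probes.

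A gene symbol was given for 1765 genes, all of which were tested. These symbols come from the study's own list of genes that differed with birth weight on these arrays, so the named genes are a selection. It was not made on the tissue difference itself, but a gene could enter through the umbilical cord arrays alone. The selection may therefore not be independent of the level in each tissue. Of the named genes 1282 (72.6%) were called, 660 (37.4%) higher in skeletal muscle and 622 (35.2%) in labelled liver, with a median difference of 0.06. The 2 largest differences among probes well above background on all 8 muscle arrays belonged to unnamed transcripts. XR_013817 ranged from 8.48 to 9.40 on the muscle arrays and NM_000257 from 8.28 to 9.30, while both were well above background on 1 of the 6 arrays labelled liver. In the other direction NM_005554 and NM_006952 were not well above background on any muscle array and were at least 7190-fold and at least 1670-fold higher in labelled liver. A bound of this kind sets the mean of the brighter tissue against the dim tissue's own signal or the lowest signal called well above background, whichever was higher on each array.

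Sarcomere genes were among the largest named differences. Of 9 genes of the sarcomere and its scaffold, 8 were higher in skeletal muscle and 1 in labelled liver (40.6% and 30.3% over all probes). The median difference was 7.53. TNNC1, the slow and cardiac isoform of the calcium-binding troponin subunit, ran from 5.26 to 7.25 on the muscle arrays (median 6.5) and from -4.59 to -2.48 on those labelled liver (median -3.36). The groups were far apart, with a difference of 9.91 ± 0.31 (SE), or 962-fold (adjusted p = 2.61e-12, limma). LOC694413, annotated as similar to titin, the giant spring protein of the sarcomere, spanned 6.70 to 7.73 in muscle and -2.84 to -1.83 in labelled liver. Its arrays were tightly grouped within each label, and it was 824-fold higher in muscle. TCAP, which anchors titin at the Z disc, ran from 8.31 to 9.06 in muscle, against -0.84 to -0.25 in labelled liver (573-fold). ANKRD23, a titin-binding ankyrin repeat protein, was 149-fold higher.

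Within the sarcomere list, MYH6, LOC712230 and MYBPH varied most over the muscle arrays. MYH6, the alpha cardiac myosin heavy chain, ran from -0.67 to 2.78 over the 8 muscle arrays (median 1.39) and from -7.94 to -6.36 on the arrays labelled liver, where 1 of 6 was well above background. The fitted difference was 8.11 ± 0.38 (adjusted p = 1.58e-10, limma), against a signal at background on most arrays labelled liver. LOC712230, annotated as similar to the myosin heavy chain MYH7B, ranged over 2.32 to 5.99 in muscle and was 185-fold higher. MYBPH (myosin binding protein H) had the widest range of the list, from 1.97 to 7.43 in muscle against -3.65 to -0.93 in labelled liver, and the same 185-fold ratio with a larger error (7.53 ± 0.70). FHL1, a LIM-domain scaffold protein, was expressed in both tissues and was 12.5-fold higher in muscle. The exception was APEG1, a gene named for its preferential expression in aorta, at 0.92 to 1.78 in muscle and 3.48 to 4.98 in labelled liver. It was 8.03-fold higher in labelled liver with no overlap of the arrays.

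**Figure D2:**
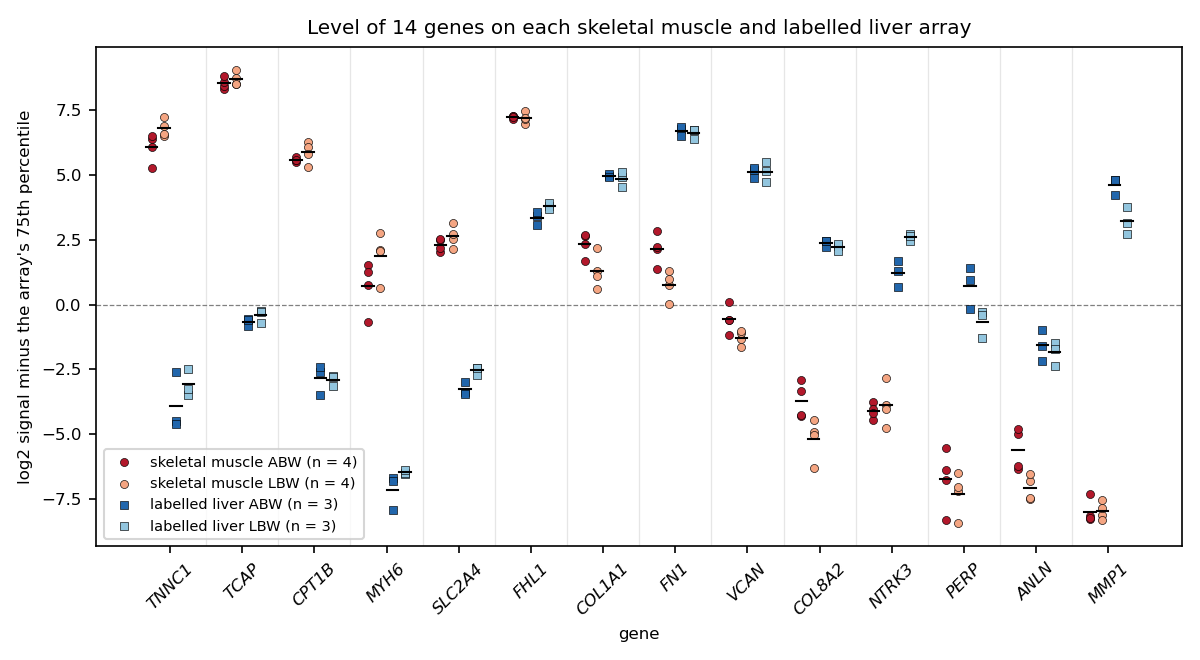
Log2 level, relative to the array's 75th percentile, of 14 genes on each of the 8 skeletal muscle arrays (circles) and 6 arrays labelled liver (squares), with ABW in dark and LBW in light colours and a bar at the mean of each group of 4 or 3 arrays. At all 14 genes the arrays of the labels were apart (42.5% over all probes), but many of these genes were chosen on that condition. The muscle values of MMP1 were not well above background on any of the 8 arrays.

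Genes of the muscle membrane, synapse and signalling followed, with 12 of 16 higher in skeletal muscle and 3 in labelled liver (40.6% and 30.3% over all probes). The median difference was 1.72. CACNB1, the beta subunit of the calcium channel that couples excitation to contraction, ran from 4.90 to 5.85 on the muscle arrays and from -1.11 to 0.10 on the others (68.2-fold). KLHL30, a kelch-like protein, stayed at background on all 6 arrays labelled liver and was at least 104-fold higher in muscle. IP6K3, an inositol hexakisphosphate kinase of muscle, ran from -0.90 to 0.91 in muscle and was well above background on 2 of 6 arrays labelled liver. The neuromuscular junction was represented by ACHE (acetylcholinesterase), 9.36-fold higher in muscle, and COLQ, the collagen tail that anchors that enzyme, 4.17-fold higher. Neither overlapped between the labels.

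Members of the dystrophin complex differed less. DMD (dystrophin) ran from 2.15 to 3.13 in muscle and from 1.01 to 2 in labelled liver, where it was well above background on all 6 arrays. The difference was 1.20 ± 0.15, or 2.29-fold (adjusted p = 5.62e-06, limma). With spike-in scaling it was 0.45 (adjusted p = 0.22). SSPN (sarcospan), a membrane partner of the complex, was 3.15-fold higher in muscle. GYLTL1B, a glycosyltransferase that acts on dystroglycan, was 7.52-fold higher in labelled liver. PPP1R12B, a myosin phosphatase subunit, was 2.31-fold higher in labelled liver, and the difference was no longer called after normexp background correction (-0.29, adjusted p = 0.0841). C8orf22 and LOC196541, for which no function is stated here, stayed at background on all 6 arrays labelled liver and were at least 1190-fold and at least 84.5-fold higher in muscle. LOC196541 had a wide spread over the muscle arrays, from -5.66 to 1.25.

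Genes of fuel supply were higher in skeletal muscle at 13 of 14 (40.6% over all probes). At all 13 every muscle array lay above every array labelled liver (23.4% over all probes). The median difference was 2.71. CPT1B, the muscle form of the enzyme that lets fatty acids into mitochondria, ran from 5.32 to 6.28 in muscle and from -3.48 to -2.42 in labelled liver. It was 386-fold higher (8.59 ± 0.19, adjusted p = 5.21e-14, limma). SLC2A4, the insulin-responsive glucose transporter GLUT4, spanned 2.03 to 3.15 in muscle and -3.45 to -2.44 in labelled liver, a 41.8-fold difference. ACYP2, the muscle acylphosphatase, was 42-fold higher and SLC25A4, the ADP/ATP carrier of striated muscle, 22.3-fold higher. SLC25A4 ranged from 4.68 to 7.14 over the muscle arrays, with ABW replicate 2 the highest and LBW replicate 3 next at 6.19.

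Enzymes used in many tissues were also higher in muscle, by smaller folds. ETFDH, which passes electrons from fatty acid oxidation to ubiquinone, was 12.4-fold higher and PDK2, a kinase that restrains pyruvate oxidation, 9.03-fold higher. LDHA (lactate dehydrogenase A) ran from 4.84 to 6.95 in muscle and from 3.59 to 4.27 in labelled liver (3.70-fold). OGDHL, a relative of the 2-oxoglutarate dehydrogenase subunit, was the member that did not pass, at 0.57 ± 0.46, and was well above background on 3 arrays of each label. It passed the filter on dim probes only through the umbilical cord arrays, where its mean was 2.46. Among the top named genes outside the lists were SLC38A3, a glutamine transporter, and GPT2, the mitochondrial alanine aminotransferase, 175-fold and 163-fold higher in muscle. Both were well above background on all 14 arrays.

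Respiratory chain subunits moved in the same direction over a smaller range. Of 13 measured, 12 were higher in skeletal muscle and none in labelled liver, with a median difference of 1.56 (40.6% of all probes were higher in muscle). With spike-in scaling 7 of the 13 were higher in muscle and the median was 0.81. NDUFV3, a subunit of complex I, ran from 2.15 to 3.05 in muscle and from -1.06 to -0.51 in labelled liver, a 9.91-fold difference. CYCS (cytochrome c) was 7.42-fold higher and SDHD, a subunit of complex II, 4.4-fold higher. ATP5F1, a subunit of the ATP synthase, did not pass at 1.08 ± 0.74. The smallest difference that passed was 0.52 at COX7B, a subunit of complex IV, with overlapping arrays.

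Mitochondrial ribosomal proteins were higher in skeletal muscle at 8 of 10 (40.6% over all probes), with a median difference of 0.82. MRPL15 (6.35-fold) and MRPS10 (4-fold) led. MRPS6 was 1.83-fold higher in labelled liver. Of 8 proteins of the cytosolic ribosome none was higher in muscle and 3 were higher in labelled liver (40.6% and 30.3% over all probes). The latter share is near that over all probes, and in the fit on all 22 arrays 1 was higher there. The other 5 did not pass. The differences of the 8 lay between -0.64 (RPS7) and 0.04 (RPL13). With spike-in scaling 3 of the 10 mitochondrial proteins were higher in muscle (median 0.07) and 7 of the 8 cytosolic ones in labelled liver (median -1.02).

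**Figure D3:**
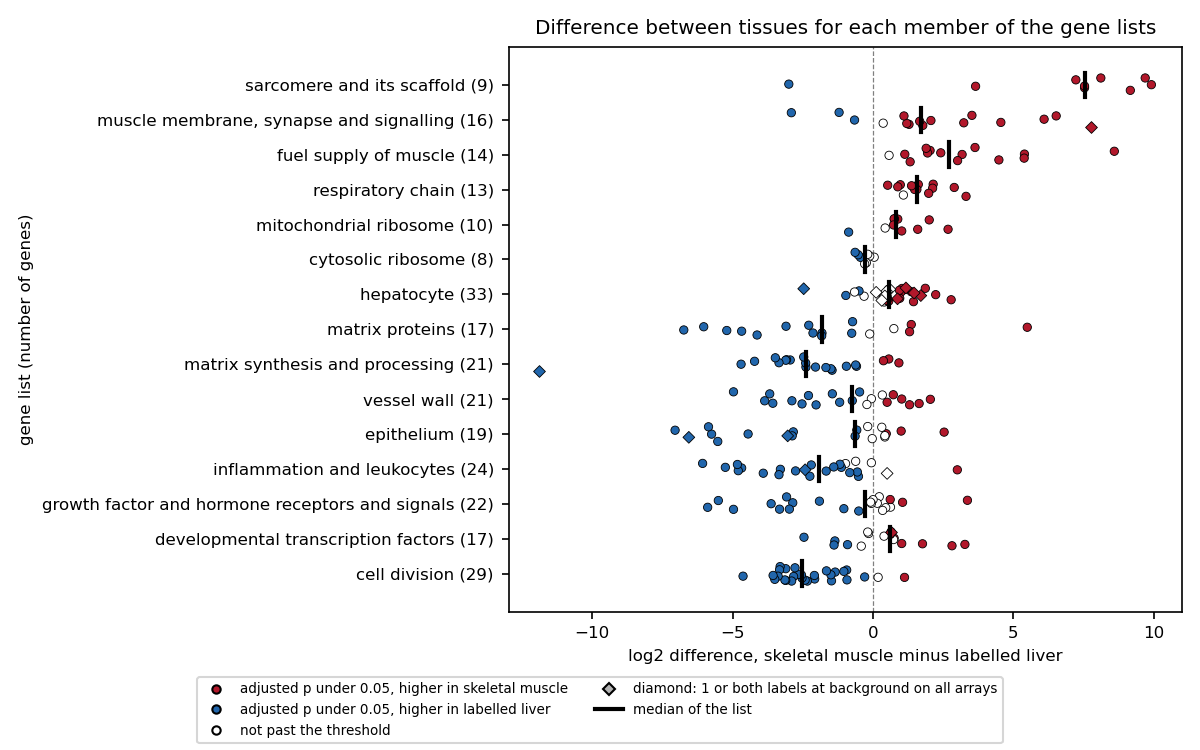
Log2 difference (skeletal muscle minus labelled liver) of each member of 15 gene lists, with a point for each gene, filled where the adjusted p was under 0.05, a diamond where a tissue was at background on all its arrays, and a bar at the list's median. The medians ran from -2.53 for cell division to 7.53 for the sarcomere, against 0.21 over all tested probes.

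Matrix genes were the counterpart on the arrays labelled liver. Of 17 matrix proteins 12 were higher there (30.3% over all probes), 10 with every muscle array below every array labelled liver (19.1% over all probes), and 3 were higher in skeletal muscle. The median difference was -1.83. COL1A1, a chain of type I collagen, ran from 0.59 to 2.70 on the muscle arrays (median 1.93) and from 4.53 to 5.12 on those labelled liver (median 4.95). The difference was -3.10 ± 0.26, or 8.59-fold higher in labelled liver (adjusted p = 7.94e-08, limma). FN1 (fibronectin) spanned 0.03 to 2.83 in muscle and 6.40 to 6.84 in labelled liver (37.0-fold). VCAN (versican), a large proteoglycan of loose connective tissue, spanned -1.64 to 0.11 and 4.73 to 5.49 (65.3-fold). The muscle arrays were more spread than those labelled liver at all 3 of these genes. At FN1 the muscle arrays ran from 1.37 to 2.83 in ABW and from 0.03 to 1.31 in LBW, while at COL1A1 and VCAN the birth weight groups overlapped. Birth weight and slide cannot be told apart in muscle.

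COL8A2, a chain of the short-chain collagen VIII, had the largest difference of the matrix proteins. It ran from -6.29 to -2.90 in muscle and from 2.07 to 2.45 in labelled liver, a difference of -6.74 ± 0.33. The small proteoglycans LUM (lumican) and OGN (osteoglycin) were 17.6-fold and 4.90-fold higher in labelled liver. Going the other way, COL4A4, a chain of basement membrane collagen, was 45.1-fold higher in muscle, at -1.57 to 0.41 against -7.89 to -3.78, with 4 of 6 arrays labelled liver well above background. SERPINF1, an antiangiogenic serpin, was 2.57-fold higher in muscle, and with spike-in scaling its difference was 0.61 (adjusted p = 0.119).

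Enzymes that build, modify and cut the matrix were higher in labelled liver at 18 of 21 and higher in muscle at 3 (30.3% and 40.6% over all probes). The median difference was -2.39. MMP1, an interstitial collagenase, was not well above background on any of the 8 muscle arrays and ran from 2.73 to 4.82 on those labelled liver. It was at least 1830-fold higher there, the largest bound of any named gene. P4HA1 and PLOD2, which hydroxylate proline and lysine in collagen, were 3.21-fold and 10.2-fold higher. EXT1, which elongates heparan sulphate, was 11.1-fold higher, TGM2 (tissue transglutaminase), which cross-links matrix proteins, 18.7-fold, and KDELR3, a receptor that returns proteins to the endoplasmic reticulum, 8.48-fold. The 3 that were higher in muscle, HS6ST1, ADAMTSL4 and NDST1, differed by 0.92 at most, and with spike-in scaling 0 of the 21 were higher in muscle.

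Of the 33 hepatocyte genes 3 were higher in labelled liver and 18 were higher in skeletal muscle (30.3% and 40.6% over all probes), with a median difference of 0.55. Of those 18, however, 4 were not well above background on any of the 14 arrays. Over all 2386 probes that were not well above background on any of the 14 arrays the median difference was 0.40, and 95.1% had the higher mean in muscle. With spike-in scaling 5 were higher in labelled liver and 4 in muscle (median -0.20), and after normexp background correction none and 27. UGT2B11, a glucuronosyltransferase, was well above background on 6 of 8 muscle arrays and 1 of 6 labelled liver, with a difference of 2.78 ± 0.57 and overlapping arrays. TAT (tyrosine aminotransferase) was above background on 4 of 8 muscle arrays and 1 of 6 labelled liver, with a difference of 1.44 ± 0.27 that was no longer called with spike-in scaling (0.69, adjusted p = 0.0796). The 3 genes higher in labelled liver were KYNU (kynureninase), QPRT and SOAT2. KYNU was not well above background on any muscle array and was on 4 of 6 labelled liver. It was at least 2.22-fold higher, which turned to a difference of 0.10 (adjusted p = 0.584) after normexp background correction.

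Vessel wall genes were divided. Of 21, 12 were higher in labelled liver and 6 in skeletal muscle (30.3% and 40.6% over all probes). Of those 6, 4 differed by at least 2-fold, and the largest difference toward muscle was 2.04. Every muscle array lay below every array labelled liver at 9 genes and above at 2 (19.1% and 23.4% over all probes). With spike-in scaling 14 were higher in labelled liver and 1 in muscle, and the median difference moved from -0.74 to -1.49. P2RX1, an ATP-gated channel of smooth muscle, ran from -4.24 to -2.43 in muscle and from 0.79 to 2.18 in labelled liver (31.3-fold). GJA1 (connexin 43) was 14.5-fold higher in labelled liver, MCAM, an adhesion molecule of vessel walls, 11.9-fold, and HEYL, a Notch target of vascular smooth muscle, 4.08-fold. PALLD (palladin), an actin-bundling protein, was present in both and 2.28-fold higher in labelled liver. EGFL7, which endothelial cells secrete, did not pass, with levels of 2.99 to 3.83 in muscle and 2.39 to 3.92 in labelled liver. Blood vessels are present in most tissues, and in bulk RNA fewer cells of a type cannot be told apart from less RNA per cell.

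Epithelial genes were higher in labelled liver at 11 of 19 and in muscle at 3 (30.3% and 40.6% over all probes). The largest difference toward muscle was 2.53. After normexp background correction 9 were higher in labelled liver and 6 in muscle, and the median difference moved from -0.64 to -0.12. PERP, a desmosomal protein of stratified epithelia, was well above background on 3 of 8 muscle arrays and on all 6 labelled liver, where it ran from -1.30 to 1.42 and was 132-fold higher. SPRR3, a cornified envelope precursor, was not well above background on any muscle array and was at least 55.8-fold higher in labelled liver, over a wide range there of -2.90 to 1.70. MSLN (mesothelin), a surface protein of mesothelium and some epithelia, was 53.9-fold higher, TNS4 (tensin 4) 46.2-fold and C19orf33 58.2-fold. MET, the receptor of hepatocyte growth factor, differed by less (1.55-fold higher in labelled liver, with overlapping arrays).

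Inflammatory and leukocyte genes were higher in labelled liver at 19 of 24 and in muscle at 1 (30.3% and 40.6% over all probes). That 1 was IL15RA (8.02-fold, with 4 of 6 arrays labelled liver well above background). The chemokine genes CCL2 and CCL11, which attract monocytes and eosinophils, were each well above background on 4 of 8 muscle arrays. CCL2 ran from -8.05 to -4.43 in muscle and from -2.95 to -0.37 in labelled liver, and CCL11 from -8.50 to -4.66 and from -3.44 to 0.04. The arrays did not overlap at either gene, with differences of 27.9-fold and 28.5-fold. CXCL1, a neutrophil attractant, was well above background on 1 of 8 muscle arrays and on all 6 labelled liver. ANXA1 (annexin A1), a regulator of inflammation, was 38.4-fold higher in labelled liver and C2, a complement component, 15-fold. IL1R2, a decoy receptor of interleukin 1, was above background on 1 of 8 muscle arrays and ran from -2.13 to 1.55 in labelled liver. On the arrays labelled umbilical cord its mean was 3.64, above both.

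Cell division genes were higher in labelled liver almost throughout. Of 29 genes 27 were higher there (30.3% over all probes), 23 of them without overlap of the arrays (19.1% over all probes). CDKN3 alone was higher in muscle. The median difference was -2.53. ANLN (anillin), a scaffold of the cleavage furrow, ran from -7.48 to -4.80 in muscle, where it was well above background on 4 of 8 arrays, and from -2.35 to -0.96 in labelled liver. It was 24.7-fold higher there. CDC2, the mitotic kinase now called CDK1, was 5.77-fold higher and its partner CCNB1 (cyclin B1) 6.85-fold. BUB1B, a spindle checkpoint kinase, was 7.11-fold higher. CDKN3, a phosphatase that acts on cyclin-dependent kinases, was 2.18-fold higher in muscle, or 0.37 on the log2 scale (adjusted p = 0.342) with spike-in scaling. The normexp background correction reduced the list's median to -0.65.

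Growth factor and hormone genes gave 11 of 22 higher in labelled liver and 3 higher in muscle (30.3% and 40.6% over all probes). The other 8 did not pass. NTF3 (neurotrophin 3) and its receptor NTRK3 were among the largest differences of all named genes. NTF3 ran from -5.53 to -4.55 in muscle and from -0.25 to 1.17 in labelled liver (45.5-fold), and NTRK3 from -4.75 to -2.82 and from 0.66 to 2.71 (59.4-fold). TGFA (transforming growth factor alpha) was well above background on 1 of 8 muscle arrays and on all 6 labelled liver, at -3.13 to -0.87. PTH1R, the receptor of parathyroid hormone, was 12.4-fold higher. The imprinted gene MEST ran from -0.24 to 1.03 in muscle and from 3.15 to 4.18 in labelled liver. LEPR (leptin receptor) was 10.3-fold higher in muscle, at -1.55 to -0.11 against -4.83 to -2.98. NR3C1, the glucocorticoid receptor, ran from -1.26 to -0.61 in muscle and from -1.11 to -0.78 in labelled liver. Its difference was 0.00 ± 0.13.

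Developmental transcription factors were split, with 8 of 17 higher in muscle and 4 in labelled liver, shares near those over all probes (40.6% and 30.3%). With spike-in scaling 3 were higher in muscle and 6 in labelled liver, and the median moved from 0.62 to -0.13. EN1 (engrailed 1) ran from -2.05 to -0.35 in muscle and from -5.03 to -2.76 in labelled liver (7.03-fold). HOXB13, the member of the HOX family with a name here, was 3.38-fold higher in muscle at low levels in both. VGLL3, a cofactor of TEAD factors, and GATA2, a factor of endothelial and blood cells, were 5.50-fold and 2.62-fold higher in labelled liver. TEAD1, a factor that drives muscle genes, was 2.44-fold higher in muscle, which fell to a difference of 0.54 (adjusted p = 0.132) with spike-in scaling.

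The tissue difference was also taken within each birth weight group. There were 9957 probes (58.2%) called in ABW, 5480 (32%) higher in muscle and 4477 (26.2%) in labelled liver. In LBW 10123 (59.1%) were called, 5865 (34.3%) and 4258 (24.9%). Of these, 8603 were called in the same direction in both, while 5 were called in opposite directions. The probes called in both were 86.5% of those called in ABW and 85% of those called in LBW. Over the 17117 probes the difference had the same sign in 89.7%, and the 2 sets of differences correlated at 0.964, a description across probes, which are not independent. The sarcomere list gave 8 genes higher in muscle and 1 in labelled liver within each birth weight group, and the cell division list 26 higher in labelled liver in each.

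No probe passed for the interaction of birth weight and tissue, that is, the tissue difference in LBW minus that in ABW. At an unadjusted p under 0.05 there were 813 of 17117 (4.75%), and the methods' two-way test also called none after adjustment. Among named genes the largest interactions were those of HS3ST4 (4.30 ± 0.85, adjusted p = 0.514, limma), ELMOD1 (3.88 ± 1.31), C5orf46 (3.66 ± 1.23), LOC196541 (3.18 ± 1.49), NMNAT2 (-3.12 ± 0.53) and RBBP9 (2.93 ± 1.69). Without LBW replicate 1 of the arrays labelled liver 6 probes passed. In skeletal muscle, birth weight and slide cannot be told apart.

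**Figure D4:**
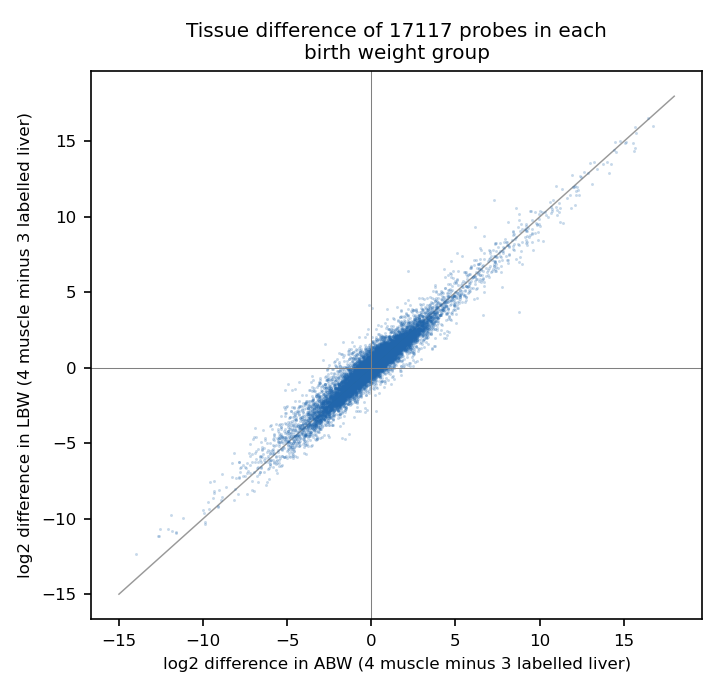
Log2 difference between skeletal muscle and labelled liver in LBW (vertical axis) against that in ABW (horizontal axis) for 17117 probes, with a point for each probe and the grey diagonal marking equality. Of the points, 89.7% have the same sign in both groups.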

How the data were processed

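The study hybridised RNA labelled skeletal muscle, liver or umbilical cord to 22 Agilent rhesus arrays in 1 colour. Per the file headers the intensities are processed signals of Agilent Feature Extraction 10.1.1.1 (10.5.1.1 for 2 arrays labelled umbilical cord), after background subtraction and not scaled between arrays. The table that the authors deposited separately holds log2 values scaled to the 75th percentile and centred on each probe within a tissue (column medians from -0.064 to 0.261 over the 14 arrays), so it was used for the interaction alone. Its deviations within a tissue correlated at 0.958 to 0.997 with those computed here.

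A probe was kept when flagged well above background on at least 1 spot on at least 75% of a group's arrays in 1 or more of the 6 groups, leaving 17117. Tests used limma 3.58.1 with statmod 1.5.0 in R 4.3.3, on simulated data first, and Python 3.11.15. P-values measure the spread between these arrays. The model held tissue and birth weight group, 4 group means served for the differences within ABW and LBW and for the interaction, and p-values were adjusted by Benjamini-Hochberg over all probes tested.

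Symbols came from the first additional file of the paper, because the reference table matched no accession of the array. Of the 667 genes in 22 lists written first, 58 had a symbol, so 15 lists of 273 genes were written by annotated function after the files had been opened. The members and lists were chosen with earlier results of these data known. Genes named are the 12 largest differences in each direction well above background throughout the brighter tissue with no overlap, the defining markers with a symbol, members of the lists, and the 6 largest interactions. Of several probes of a gene (72 genes) that with the highest mean was used, and none were called in opposite directions. Normexp (offset 50) used median spot and background signals. Alternatives covered background correction, scaling, filters, the test, blocks for slide and replicate number, and leaving out each array.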

Additional observations from a re-analysis of the deposited data

Results flagged for a closer look

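Among the genes named, 202 pairs of a gene and a muscle group of 4 arrays were looked at for an array far from the other 3, and 14 had one, where chance gives about 1 in 20. The arrays labelled liver, 3 to a group, were not looked at. In ABW, replicate 1 stood apart at PDK2 (0.17, the others 0.37 to 0.40), SLC38A3 (1.95, the others 2.92 to 3.06), MRPL15 (2.82, the others 2.51 to 2.55) and C2 (-1.75, the others -1.19 to -1.12). Replicate 2 stood apart at SLC25A4 (7.14, the others 5.48 to 5.58) and at MMP1 (-7.29, the others -8.28 to -8.16, all at background), replicate 3 at LOC694413 (6.70, the others 7.15 to 7.21) and P2RX1 (-4.24, the others -3.67 to -3.63), and replicate 4 at CDC2 (-5.02, the others -6.01 to -5.85). In LBW, replicate 1 stood apart at MRPL15 (1.54, the others 2.45 to 2.55), replicate 2 at MRPS6 (3.46, the others 2.84 to 2.93), replicate 3 at TAT (-4.82, the others -6.10 to -6.01), and replicate 4 at LDHA (6.65, the others 4.84 to 5.04) and CXCL1 (-6.92, the others -6.38 to -6.29).

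The arrays labelled umbilical cord are outside the comparison of muscle with labelled liver. On them the 33 hepatocyte genes had a median level of 0.86, against -6.09 on the arrays labelled liver and -5.14 on the muscle arrays. Of the 33, 10 passed the filter on dim probes only through the umbilical cord arrays, which favoured this outcome for those genes.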

How the results depend on the processing

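Of 94 named genes followed, 85 kept their direction and their side of the threshold under every setting tried. The other 9 were KYNU and PPP1R12B (normexp), DMD, TEAD1, PPP3CA, TAT, SERPINF1 and CDKN3 (spike-in scaling) and RPL17 (fit on all 22 arrays). Some genes named above were not followed, COX7B, UGT2B11, HS6ST1, ADAMTSL4 and NDST1 among them. Of the 21 enzymes that build, modify and cut the matrix, 3 were higher in skeletal muscle in the main fit and 0 with spike-in scaling. With normexp background correction, 4658 probes differed by at least 2-fold, 2484 higher in skeletal muscle and 2174 in labelled liver. KYNU turned there from higher in labelled liver to 0.10. With spike-in scaling, 2523 probes were higher in skeletal muscle, at least 2-fold counts were 2082 and 6082, and 5477 probes were called in the same direction in ABW and in LBW. That scaling shared 63.5% of the calls and turned none of the shared calls around, and no other setting moved the median of all differences by more than -0.13 (quantile normalization). Leaving out single arrays gave 11610 to 12104 probes called, 6634 to 6892 higher in skeletal muscle and 4965 to 5275 in labelled liver, 7614 to 7864 at 2-fold (4075 to 4327 and 3490 to 3562), 7811 to 8587 called alike in ABW and in LBW, and 0 to 6 for the interaction, the 6 without labelled liver LBW replicate 1.

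The labels give both tissues the same replicate numbers, but arrays of the same number did not deviate together. Their correlations ran from -0.285 to 0.045 over 6 pairs, against -0.163 to 0.251 over 18 pairs of unlike number. The numbers were not taken as a pairing, though so few pairs cannot exclude one. With the replicate block over replicates 1 to 3, 11060 probes were called, against 11641 on the same arrays without the block. With slide as a random block (correlation -0.036) 12429 were called. Signal over background limits the dim probes, and skeletal muscle ABW replicate 2 had the fewest probes well above it (14991).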
